A study of Mus musculus with 217 samples.

Results

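The genes described here are 10 mouse genes known from earlier work to respond to glucocorticoids or to take part in glucocorticoid signalling, namely Fkbp5, Tsc22d3, Sgk1, Zbtb16, Pdk4, Dusp1, Zfp36, Nr3c1, Hsd11b1 and Sult1a1. They were chosen by name, out of 52550 gene rows in the deposited count tables. All 10 passed the filter on low counts in every comparison. Nothing in the count tables measures a hormone, so the word glucocorticoid is used here for what the genes are known for.

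RNA was recovered from ribosomes of endothelial cells (ECs) in the brain, lung and heart of adult C57BL/6J mice. All animals, controls included, carried Cdh5CreERT2/+; Rpl22HA/+ (RiboTag mice) and had received 5 mg tamoxifen by gavage on 4 occasions at 4 to 6 weeks of age. In these mice the Cdh5 (VE-cadherin) promoter drives a tamoxifen-inducible Cre, which switches on an HA-tagged ribosomal protein in ECs, and an antibody to the tag pulls ribosome-bound RNA out of whole-tissue homogenate. The 0 hr mice were the controls, which per the study's methods received PBS, and the other mice were sacrificed 6, 24, 48, 72 or 168 hr after an intraperitoneal dose of 10 mg/kg lipopolysaccharide (LPS), a bacterial cell wall product that sets off systemic inflammation. The 217 sequencing runs were summed to 98 libraries, of which the 80 with at least 3% of reads on genes were used. The brain and the heart had 5, 5, 4, 6, 4 and 4 libraries at 0, 6, 24, 48, 72 and 168 hr, and the lung had 4, 4, 2, 6, 4 and 4. Levels are log2 CPM (counts per 1000000 counts on genes, scaled between libraries, with a prior count of 2). The immunoprecipitate is a bulk sample, in which fewer cells of a type and less RNA per cell cannot be told apart.

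Glucocorticoids are adrenal steroids released under stress and infection, corticosterone in the mouse. They cross the plasma membrane and bind the glucocorticoid receptor (Nr3c1), which waits in the cytosol in a complex with heat shock proteins and then moves to the nucleus to activate or repress genes. In vessels these hormones are known for damping inflammatory activation and, in the brain, for tightening the endothelial barrier.

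Of the 80 libraries, a few stood apart. Counts on genes ran from 284457 to 43417945, with a median share of reads on genes of 60.6% in the brain, 63.4% in the heart and 28.6% in the lung. The lung 6 hr replicate 4 library was the shallowest (284457 counts on genes, 3.40% of reads), and 8 of the 10 genes had no count in it, where 3 counts would have stood for 10.5 CPM. Its log2 CPM for such a gene, -3.35, is only the floor set by the prior count. The brain library labelled 6 hr replicate 6 and the heart library labelled 6 hr replicate 5 lay at the 0 hr level. Placed on the axis from the mean 0 hr level (0) to the mean 6 hr level (1), they stood at -0.12 and -0.02, against 1.03 to 1.51 for the other 4 brain libraries and 0.96 to 1.53 for the other 4 heart libraries. Icam1, an adhesion molecule that ECs raise in inflammation, was at 5.21 log2 CPM in the former, against 8.08 to 9.85 in the other brain libraries at 6 hr and 4.32 to 5.46 at 0 hr. In the latter it was at 6.94, against 10.82 to 11.79 at 6 hr and 6.49 to 7.01 at 0 hr. On the same axis the lung library labelled 6 hr replicate 3, a deep one with 40128330 counts on genes, stood at 0.03, where the mean 6 hr level includes the shallow library. Its Icam1 was at 8.90 log2 CPM, against 8.73 and 9.07 in replicates 2 and 1 and 6.02 to 8.10 at 0 hr. Its level of Ccl2, a chemokine, was 3.81, against 6.88 and 7.30 in replicates 2 and 1, and lay within the 0 hr range of -0.06 to 4.65. On the axis replicates 1 and 2 stood at 0.38 and 0.90 and the shallow replicate 4 above 1. The brain library labelled 6 hr replicate 6, the heart library labelled 6 hr replicate 5 and the shallow lung library have the same mouse number in the names of their files and come from library series 1. These series, read from patterns in the file names, were a covariate in all tests, and series 4 has no 0 hr library. Results of the 10 genes that passed at 6 hr are also given without these 3 libraries.

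In mm10 all 10 are protein-coding genes, and counts were taken over their exons. On the minus strand the annotation places Fkbp5 at chr17:28399094-28517527, Dusp1 at chr17:26505590-26562128, Tsc22d3 at chrX:140539528-140600659, Zbtb16 at chr9:48654297-48836222 and Pdk4 at chr6:5483351-5496309. Also on that strand are Hsd11b1 at chr1:193221634-193264075, Sult1a1 at chr7:126672865-126676432 and Zfp36 at chr7:28376784-28380253, while Sgk1 lies on the plus strand at chr10:21882184-21999903.

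Of the 10 genes, 8 had promoter entries in the RefSeq tables of GRCm38.p6, with 15 windows of 300 bases (250 before and 50 after a transcription start), while Nr3c1 and Zbtb16 had none. The receptor binds as a dimer to a palindrome of inverted arms, so that the windows were searched on both strands for GNACANNNTGTNC and for its single arm AGAACA. The former was in 1 of the 15 windows, against 0.475% of the 32851 windows of all genes, and the latter was in 5, against 18.974% (the palindrome with complete arms holds the arm on each strand). The 2 windows below are printed for Sgk1, which had calls for a difference in response between tissues, and for Tsc22d3, which moved together in the tissues of a mouse. The calls for Sgk1 were lost under several other settings, as given below. Capitals mark the arm in either orientation, and in the Sgk1 window also the bases between the inverted pair.
Sgk1, chr10:21993640-21993939, plus strand: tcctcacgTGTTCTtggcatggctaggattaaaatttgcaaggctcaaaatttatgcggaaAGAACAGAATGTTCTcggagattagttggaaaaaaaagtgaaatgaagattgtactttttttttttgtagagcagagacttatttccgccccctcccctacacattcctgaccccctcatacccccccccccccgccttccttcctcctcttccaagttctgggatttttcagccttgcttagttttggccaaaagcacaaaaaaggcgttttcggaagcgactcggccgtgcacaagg
Tsc22d3, chrX:140600473-140600772, minus strand: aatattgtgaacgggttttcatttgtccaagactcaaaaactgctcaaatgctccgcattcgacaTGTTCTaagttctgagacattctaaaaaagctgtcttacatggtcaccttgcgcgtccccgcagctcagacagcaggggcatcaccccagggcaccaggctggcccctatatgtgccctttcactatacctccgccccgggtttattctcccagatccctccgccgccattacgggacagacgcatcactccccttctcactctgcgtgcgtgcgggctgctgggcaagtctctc
In the Sgk1 window the full form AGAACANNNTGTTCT began 189 bases before the start, and it was found in 3 of the 32851 windows (0.009%). It belongs to 1 of 6 starts annotated for Sgk1, and the counts do not say from which start the RNA came. The other matches were single arms in 2 more Sgk1 windows, in 1 of 3 Tsc22d3 windows and, with 2 of them, in the Sult1a1 window. A match describes letters, not a bound site.

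At 0 hr the 10 genes differed widely between the vascular beds, and the question here is what level each bed starts from. Of the 10, 7 differed between brain and lung, 7 between brain and heart and 7 between lung and heart, where 64.3%, 54.8% and 61.1% of all 17730 genes tested did. The counts were thus close to those of other genes. The test was edgeR's quasi-likelihood test with Benjamini-Hochberg adjustment, as in all comparisons below, and n was 5 brain, 4 lung and 5 heart libraries. Tissues share mice by their file names, which this test leaves out of account. With the mouse as block in place of library series, 8, 9 and 7 genes passed. Nr3c1 then passed between brain and lung (adjusted p = 0.000371) and Fkbp5 between lung and heart (adjusted p = 0.00116). Between brain and heart Fkbp5 and Zfp36 passed too (adjusted p = 0.0288 and 0.0174). The share of all genes is not given for that fit. Lengths differ between genes, so that levels of different genes are compared as CPM per kilobase of exon.

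Tsc22d3 encodes GILZ, a leucine zipper protein that restrains inflammatory transcription. It headed the order in brain and lung, with a median of 114 CPM per kb (range 65.1 to 182) in the brain and 494 (183 to 547) in the lung. In the heart it stood at 90.9 (58.3 to 146), below Sult1a1 and Sgk1. The lung level was 3.89-fold above the brain (adjusted p = 0.000546) and 4.39-fold above the heart (adjusted p = 0.000338), and the ranges did not overlap with either.

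Sgk1, a kinase that regulates ion channels and transporters, was far higher in the heart. Its level at 0 hr was 9.66, 9.05, 9.08, 9.55 and 8.38 log2 CPM in the heart, 7.44, 6.74, 5.77, 5.33 and 5.15 in the brain, and 6.28, 4.57, 5.17 and 6.07 in the lung. Every heart library lay above every brain and lung library. The difference was 8.95-fold against the brain (adjusted p = 1.52e-06) and 14.0-fold against the lung (adjusted p = 2.14e-06). Hsd11b1, the enzyme that regenerates active corticosterone from its inert 11-keto form, had the opposite order. It was lowest in the heart, at 1.62, 2.09, 1.46, 1.41 and 0.81 log2 CPM, against 2.43 to 4.39 in the brain and 4.24 to 6.04 in the lung. The lung exceeded the heart 13.5-fold (adjusted p = 7.12e-06) and the brain 3.85-fold (adjusted p = 0.00064). Nr3c1 was in turn highest in the heart, 2.50-fold above the brain (adjusted p = 0.00983) and 4.64-fold above the lung (adjusted p = 0.000648), and the heart libraries overlapped with neither.

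Sult1a1, a sulfotransferase that conjugates phenols, led the heart order with a median of 234 CPM per kb (range 172 to 383), and its heart level exceeded the lung 4.40-fold and the brain 2.39-fold. Zbtb16, a zinc finger transcription factor also known as PLZF, was 5.54-fold higher in the lung than in the brain and 2.81-fold higher in the heart than in the brain. Pdk4, which shuts off pyruvate entry into the citric acid cycle, was 3.73-fold higher in the heart than in the brain and 5.29-fold higher than in the lung. Dusp1, a phosphatase of MAP kinases, was lower in the brain than in lung (4.51-fold) and heart (3.47-fold). Zfp36, which encodes the mRNA decay factor tristetraprolin, was 2.92-fold higher in the lung than in the brain. Fkbp5, a co-chaperone that lowers the affinity of the receptor for its ligand, was 3.16-fold higher in the brain than in the lung, with 3.11 CPM per kb (1.93 to 14.9) in the lung and 16.1 (5.29 to 32.2) in the brain. Adjusted p for these differences was at most 0.00812. Of the calls at 0 hr, 2 were lost when a library was left out. Sult1a1 between brain and lung (log2 difference 0.88, adjusted p = 0.048) was lost without any 1 of brain replicates 1, 3 and 4 and lung replicates 1, 2 and 3 (adjusted p up to 0.178), and Zbtb16 between lung and heart (0.98, adjusted p = 0.0413) without any 1 of heart replicates 1, 2, 4 and 5 and lung replicates 2 and 4 (adjusted p up to 0.199).

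Neighbours in the order often could not be told apart. In the brain, Dusp1, Fkbp5, Nr3c1, Zfp36 and Sgk1 had medians from 20.1 down to 11.1 CPM per kb and overlapping ranges. In the heart, Pdk4, Fkbp5 and Zbtb16 had medians of 9.19, 7.44 and 6.09 with overlapping ranges, while Hsd11b1 at 0.625 (0.389 to 0.980) lay below all others.

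**Figure D1:**
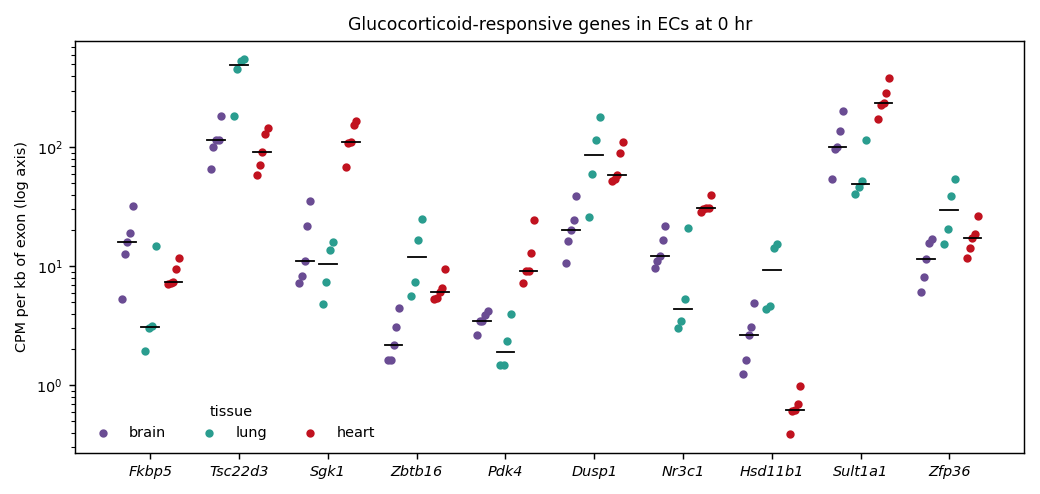
Level of the 10 genes at 0 hr, as CPM per kb of exon on a log axis, in brain, lung and heart ECs. Each point is 1 library and each bar the median of 5, 4 and 5 libraries. The heart points of Sgk1 lie above all its brain and lung points, and the heart points of Hsd11b1 lie below them.

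After LPS, the genes that rose were Fkbp5, Pdk4, Zfp36, Sgk1 and Hsd11b1, and those that fell were Nr3c1 and Sult1a1, each in some of the tissues. Over 10 genes and 5 time points, 10 of 50 comparisons with 0 hr passed the test in the brain (6 higher and 4 lower) and 10 of 50 in the heart (9 higher and 1 lower). The same tests called 7.08% of all gene and time pairs in the brain and 12.7% in the heart, and 1 of 50 passed in the lung, where 1.2% did. By time point, 3, 3, 4, 0 and 0 genes passed in the brain at 6, 24, 48, 72 and 168 hr, by edgeR, against 6.44%, 11.2%, 14.2%, 3.53% and 0% of all genes. In the heart 3, 4, 2, 1 and 0 passed, against 42.8%, 16.2%, 4.19%, 0.275% and 0%, so that the 3 of 10 genes called at 6 hr were fewer than the share of all genes. The number with an unadjusted p under 0.05 was 1 and 1 in the brain at 72 and 168 hr and 2 in the heart at 168 hr. The 1 call in the lung was at 6 hr, where 4.83% of all genes passed, and 0.375%, 0.598%, 0.193% and 0.0117% passed at the later times. At those times 1, 4, 2 and 0 of the genes had an unadjusted p under 0.05 in the lung, and by DESeq2 4 of 50 passed there in all. In the edgeR fit of all time points Tsc22d3, Zbtb16 and Dusp1 did not pass at any time in any tissue. Other settings for Zbtb16 and Dusp1 are given below. Without the 3 libraries of series 1 at 6 hr, the counts were 12, 2 and 12 of 50 in brain, lung and heart, where the shares of all gene and time pairs were 9.7%, 1.02% and 18.7%. At 6 hr alone, 4 of the 10 genes then passed in the brain, 2 in the lung and 4 in the heart, where 14.3%, 3.95% and 58.4% of all genes did.

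All of the 10 genes called at 6 hr were called also without these 3 libraries. In the heart the log2 fold change was then 4.08 ± 0.70 for Pdk4 (adjusted p = 2.57e-05), 3.19 ± 0.49 for Fkbp5 (adjusted p = 5.77e-06) and 2.84 ± 0.33 for Zfp36 (adjusted p = 1.49e-07). In the brain it was 2.70 ± 0.45 for Zfp36 (adjusted p = 0.000108) and 1.84 ± 0.47 for Sgk1 (adjusted p = 0.00837). In the lung it was 3.68 ± 0.88 for Pdk4 (adjusted p = 0.0178). The values of Nr3c1, brain Pdk4 and lung Fkbp5 stand with these genes below.

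**Figure D2:**
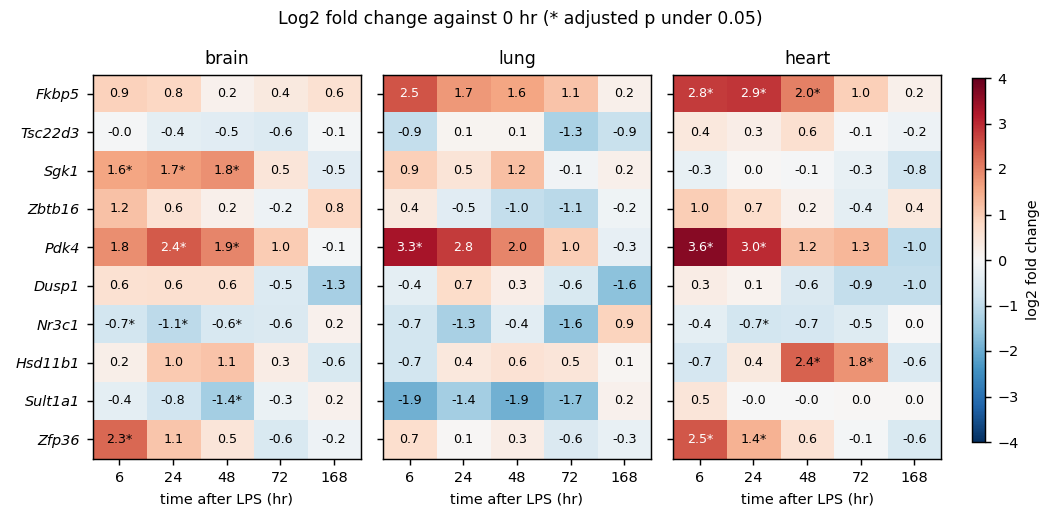
Log2 fold change against 0 hr for each gene (rows) at 6, 24, 48, 72 and 168 hr after LPS (columns) in brain, lung and heart, from the edgeR fit with library series as covariate. Red is higher and blue lower than 0 hr, and an asterisk marks an adjusted p under 0.05. The asterisks fall on Pdk4, Zfp36, Sgk1, Nr3c1 and Sult1a1 in the brain, on Pdk4 in the lung and on Fkbp5, Pdk4, Zfp36, Hsd11b1 and Nr3c1 in the heart.

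Fkbp5 rose in heart ECs. Its level was 6.81, 6.08, 6.50, 6.14 and 6.10 log2 CPM at 0 hr, 9.11, 9.23, 9.21 and 9.53 at 6 hr with 7.06 in the library labelled replicate 5, and 9.55, 9.79, 9.84 and 10.07 at 24 hr. All libraries at 6 and 24 hr lay above all 0 hr libraries. The log2 fold change was 2.81 ± 0.55 (SE) at 6 hr (7.02-fold, adjusted p = 0.000498) and 2.87 ± 0.55 at 24 hr (7.31-fold, adjusted p = 0.00252), and no single library decided either call. Within library series 2 the means differed by 3.02 at 6 hr, and by 0.62 within series 1, whose only heart library at 6 hr is replicate 5. At 24 hr they differed by 3.10 within series 1 and 3.54 within series 2. At 48 hr the 6 libraries spread from 6.59 to 9.90 with a median of 8.98. Replicates 1 and 2, at 7.46 and 6.59, were from series 2 and the lowest, and the means differed from 0 hr by 2.54 within series 1 and 0.78 within series 2. The call at 48 hr (2.01 ± 0.53, adjusted p = 0.0317) was lost without any 1 of the 5 libraries at 0 hr or 48 hr replicate 3 (adjusted p up to 0.116). At 72 hr the libraries spread from 5.32 to 9.09 and at 168 hr from 5.41 to 8.57, with no call.

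In the lung Fkbp5 was at 4.20, 4.91, 4.86 and 7.14 log2 CPM at 0 hr and at 7.44, 9.00 and 8.50 in 3 libraries at 6 hr, with no count in replicate 4. The 3 deeper libraries lay above all 0 hr libraries. The log2 fold change of 2.53 ± 0.82 did not pass with all 4 libraries (adjusted p = 0.0672) and passed without replicate 4 (3.14 ± 0.72, adjusted p = 0.0131). In the brain, where it started highest, Fkbp5 was at 8.25, 7.25, 6.91, 7.49 and 5.65 at 0 hr and at 7.74, 7.42, 7.99, 8.77 and 8.03 at 6 hr. These groups overlapped, and the change of 0.92 ± 0.46 did not pass (adjusted p = 0.300). The difference in response between brain and heart was -1.95 ± 0.74 at 6 hr (adjusted p = 0.247) and -2.18 ± 0.79 at 24 hr (adjusted p = 0.325), so that in this fit the responses of these tissues were not shown to differ. Without a low-count filter both passed (adjusted p = 0.00835 and 0.00652). Between brain and lung it was -1.82 at 6 hr and -1.59 at 48 hr, and neither passed (adjusted p = 0.112 and 0.272). Both passed without that filter and with the mouse as block (-2.25 and -2.45, adjusted p = 0.0153 and 0.0104). By DESeq2 and with DESeq2 size factors only that at 6 hr passed (adjusted p = 0.0343 and 0.0485).

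Pdk4 had the largest changes of the 10 genes. In the heart it was at 5.50, 5.02, 4.68, 6.42 and 5.01 log2 CPM at 0 hr, at 10.36, 9.00, 9.18 and 8.40 at 6 hr with 5.53 in the library labelled replicate 5, and at 8.26, 8.97, 9.17 and 9.31 at 24 hr. Apart from that replicate, the groups did not overlap with 0 hr. The log2 fold change was 3.65 ± 0.78 at 6 hr (12.5-fold, adjusted p = 0.00118), with a difference of 3.87 within series 2 and 0.27 within series 1, where replicate 5 stands alone. At 24 hr it was 2.99 ± 0.78 (adjusted p = 0.0151), with within-series differences of 3.00 and 3.60, and the call was lost without 24 hr replicate 2 (adjusted p = 0.103). By 168 hr all 4 heart libraries, between 4.57 and 5.19, were back in the 0 hr range or just under it.

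In the brain Pdk4 was at 3.61, 3.22, 3.88, 3.77 and 3.62 at 0 hr and at 5.87, 6.61, 6.53 and 6.71 at 24 hr, with no overlap. The change at 24 hr was 2.45 ± 0.61 (adjusted p = 0.0125), with 2.46 within series 1 and 2.85 within series 2, and the call was lost without 24 hr replicate 2 (adjusted p = 0.0916). At 48 hr the libraries spread from 3.12 to 7.92 with a median of 4.43, and the call (1.95 ± 0.60, adjusted p = 0.0323, with 1.27 and 0.48 within these series) was lost without any 1 of 0 hr replicates 1, 2 and 4 and 48 hr replicates 3 and 6 (adjusted p up to 0.125). The 6 hr change passed only without the library labelled replicate 6 (1.84 ± 0.57, adjusted p = 0.0541, with it and 2.16 ± 0.57, adjusted p = 0.0105, without it). Lung Pdk4 gave the single call of that tissue. It was at 2.41, 3.06, 3.82 and 2.39 at 0 hr and at 8.07, 4.72 and 6.41 at 6 hr, with no count in replicate 4. The change of 3.31 ± 0.87 (adjusted p = 0.0253) was lost without any 1 of 0 hr replicates 1, 2 and 3 and 6 hr replicate 1 (adjusted p up to 0.111). The summed endothelial markers in the lung went from between 12703 and 17344 CPM at 0 hr to between 2196 and 14336 at 6 hr, and the part of this in the lung results was not tested.

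Zfp36 and Dusp1 both encode proteins that end inflammatory signals, and of the pair only Zfp36 passed the test. Heart Zfp36 was at 6.02, 5.34, 5.91, 6.52 and 5.62 log2 CPM at 0 hr and at 9.43, 9.03, 7.69 and 8.36 at 6 hr, with 6.33 in the library labelled replicate 5. Brain Zfp36 was at 5.76, 5.31, 4.82, 5.88 and 4.39 at 0 hr and at 7.67, 8.42, 7.68 and 7.21 at 6 hr, with 5.57 in the library labelled replicate 6. In both tissues 4 of 5 libraries at 6 hr lay above every 0 hr library. The log2 fold change at 6 hr was 2.49 ± 0.40 in the heart (adjusted p = 7.96e-05) and 2.30 ± 0.51 in the brain (adjusted p = 0.0053), and neither call was lost without any 1 library. With only the groups compared the brain call was lost (adjusted p = 0.0623). The difference was 2.61 in the heart and 2.71 in the brain within series 2, and 0.64 and 0.03 in the lone libraries of series 1. In the heart 24 hr libraries, at 6.94, 7.86, 7.72 and 7.70, Zfp36 was still above all 0 hr libraries (1.40 ± 0.41, adjusted p = 0.0257). That call was lost without any 1 of 0 hr replicates 2, 3 and 5 and 24 hr replicate 2 (adjusted p up to 0.155). Dusp1 had a log2 fold change of 0.30 ± 0.34 in the heart and 0.61 ± 0.47 in the brain at 6 hr (adjusted p = 0.501 and 0.564). Its brain libraries of series 4 at 24 hr, at 8.95 and 8.97, were well above 6.98 and 6.30 in series 1 and 2, and these have no 0 hr library of their own series. Without the covariate for library series Dusp1 passed in the brain at 24 hr (2.09, adjusted p = 0.0422).

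Sgk1 rose in brain ECs, where it had started low. The level was 7.44, 6.74, 5.77, 5.33 and 5.15 log2 CPM at 0 hr, 6.79, 7.36, 7.12, 7.50 and 7.72 at 6 hr, and 8.61, 7.35, 9.46 and 9.74 at 24 hr. At 48 hr the libraries spread from 5.92 to 10.32 with a median of 8.42, and the groups overlapped with 0 hr at each of these times. The log2 fold change was 1.58 ± 0.46 at 6 hr (adjusted p = 0.0376), 1.66 ± 0.49 at 24 hr (adjusted p = 0.0313) and 1.84 ± 0.47 at 48 hr (adjusted p = 0.0125). Within series 1 and 2 the means differed from 0 hr by 0.63 and 1.78 at 6 hr and by 1.52 and 1.94 at 24 hr. The 48 hr means differed from 0 hr by 1.39 within series 1 and by 0.62 within series 2, and the 2 libraries of series 4, at 9.99 and 10.32, have no 0 hr library of their series. Without 48 hr replicate 3 the change was 1.17 (adjusted p = 0.0887). The call at 6 hr was lost without any 1 of 8 of the 10 libraries, the exceptions being 0 hr replicate 1 and 6 hr replicate 6 (adjusted p up to 0.101). That at 24 hr was lost without any 1 of 0 hr replicates 2 and 5 and 24 hr replicates 1 and 2 (adjusted p up to 0.122). With a replicate block the calls at 6, 24 and 48 hr were lost. The call at 6 hr was also lost without the series covariate, and that at 48 hr with only the groups compared. Over all settings the log2 fold change at 6 hr went down to 0.87 and its adjusted p up to 0.804. At 48 hr the adjusted p went up to 0.148.

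The heart, where Sgk1 was abundant at the start, showed no change that passed. There it was at 8.38, 8.93, 7.71, 8.74 and 9.77 at 6 hr against 9.66, 9.05, 9.08, 9.55 and 8.38 at 0 hr (-0.28 ± 0.28, adjusted p = 0.423). The difference of responses itself passed between brain and heart at 48 hr (2.31 ± 0.58, adjusted p = 0.0389) and between lung and heart at 6 hr (1.78 ± 0.65, adjusted p = 0.0471). These were 1 of 50 gene and time pairs for brain and heart and 1 of 50 for lung and heart, against 0.349% and 4.21% of all such pairs and 0.463% and 18.1% of all genes at those times. Between brain and lung 0 of 50 passed by edgeR, against 4.22%, with 3 at an unadjusted p under 0.05 and 1 by DESeq2. Tissues share mice by their file names. With the mouse as block the differences were 1.95 (adjusted p = 0.142) and 1.43 (adjusted p = 0.184), and with library series fitted within each tissue they were 1.84 (adjusted p = 0.309) and 1.66 (adjusted p = 0.0752), so that both calls were lost under either setting. They were also lost with a replicate block, by limma-voom, without the series covariate and with all libraries (adjusted p from 0.0577 to 0.495). Both calls for Sgk1 depended on single libraries as well. Each was lost without any 1 of 13 libraries, with adjusted p up to 0.206 and 0.496. For brain and heart at 48 hr they were brain 0 hr replicates 2, 3, 4 and 5, brain 48 hr replicates 3, 6 and 7, heart 0 hr replicates 1, 3 and 4, and heart 48 hr replicates 1, 4 and 6. For lung and heart at 6 hr they were all 4 lung 0 hr libraries, lung 6 hr replicates 1 and 2, heart 0 hr replicates 1, 3 and 4, and heart 6 hr replicates 1, 2, 3 and 4. In the lung Sgk1 was at 6.28, 4.57, 5.17 and 6.07 at 0 hr and at 6.32, 7.81 and 5.05 at 6 hr, with no count in replicate 4, and the groups overlapped. Without the 3 libraries of series 1 at 6 hr, the brain and heart difference also passed at 6 hr (1.92 ± 0.62, adjusted p = 0.0492). Between lung and heart at 6 hr, where 19.7% of all genes then passed, so did Sgk1 (1.97 ± 0.67, adjusted p = 0.0294), Sult1a1 (-1.88 ± 0.69, adjusted p = 0.0441) and Zfp36 (-1.66 ± 0.61, adjusted p = 0.0448).

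Nr3c1, the receptor, fell in brain ECs and returned. It was at 7.00, 7.40, 6.22, 6.42 and 6.55 log2 CPM at 0 hr, at 5.49, 5.71, 5.53 and 5.61 at 6 hr with 6.96 in the library labelled replicate 6, and at 5.85, 5.57, 5.48 and 5.61 at 24 hr. All 4 libraries at 24 hr lay below all 0 hr libraries. The log2 fold change was -0.75 ± 0.19 at 6 hr (adjusted p = 0.0138) and -1.06 ± 0.22 at 24 hr (adjusted p = 0.00302), and neither call was lost without any 1 library. Without the series covariate the call at 6 hr was lost (adjusted p up to 0.138 over all settings). Within series 1 and 2 the differences were -0.24 and -0.81 at 6 hr and -1.35 and -0.82 at 24 hr. Without the library labelled 6 hr replicate 6 the former was -1.02 ± 0.18 (adjusted p = 0.000204). At 48 hr it was -0.63 ± 0.18 (adjusted p = 0.0253, with -1.13 and -0.38 within these series), lost without 0 hr replicate 2 or 48 hr replicate 4 (adjusted p up to 0.0902). Between 72 hr and 168 hr it rose by 0.75 ± 0.22 (adjusted p = 0.0365, a step at which 8.29% of all genes passed), from 5.90, 6.21, 6.48 and 5.48 to 7.20, 7.13, 6.68 and 7.02, with no overlap. This call was lost without any 1 of 72 hr replicates 1, 3 and 5 and 168 hr replicates 2, 4 and 5 (adjusted p up to 0.250).

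In the heart Nr3c1 was at 7.87, 7.89, 7.89, 8.25 and 7.78 at 0 hr and at 6.78, 7.05, 7.68 and 7.44 at 24 hr, with no overlap. The change of -0.73 ± 0.24 passed narrowly (adjusted p = 0.0439), with -1.10 and -0.92 within series 1 and 2, and leaving out any 1 of the 9 libraries other than 24 hr replicate 4 lost it (adjusted p up to 0.190). Without the 6 hr library of series 1 it passed also at 6 hr (-0.69 ± 0.19, adjusted p = 0.00312) and at 48 hr (-0.65 ± 0.17, adjusted p = 0.0167). In the lung the libraries at 0 hr already spread from 4.56 to 7.33, and no change passed there. Between neighbouring time points, 1 of 40 comparisons passed in the brain (that of Nr3c1), 1 of 40 in the heart (that of Hsd11b1, below) and 0 of 40 in the lung by edgeR, where 3 had an unadjusted p under 0.05 and 2 passed by DESeq2. The shares of all gene and step pairs were 2.14%, 1.2% and 0.289%.

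Hsd11b1 was lowest in the heart at the start and rose there late. Heart levels were 1.62, 2.09, 1.46, 1.41 and 0.81 log2 CPM at 0 hr and 0.51, -0.24, 1.05, 0.68 and 1.47 at 6 hr. At 48 hr the 6 libraries ran from 2.50 to 4.08 with a median of 3.94, all above every 0 hr library. At 72 hr they were 1.58, 3.69, 3.78 and 2.99, and at 168 hr replicates 2, 4 and 5 were at 0.30, 1.08 and 0.68, with replicate 1 inside the 0 hr range. The change at 48 hr was 2.36 ± 0.37 (5.14-fold, adjusted p = 0.000643), with 1.99 within series 1 and 2.77 within series 2, and no single library decided it. The calls at 72 hr (1.81 ± 0.38, adjusted p = 0.0404, with 1.93 and 1.41 within these series) and for the fall from 72 to 168 hr (-2.37 ± 0.43, adjusted p = 0.0251, where 0.0686% of all genes passed) were narrower. The former was lost without any 1 library other than 72 hr replicate 1 (adjusted p up to 0.435), and the latter without any 1 other than the replicates 1 of both times (adjusted p up to 0.204). Markers of fibroblasts moved in the heart as well. The summed level of 6 of them was 237 to 536 CPM at 0 hr, 775 to 1531 at 48 hr, with no overlap, and 554 to 845 at 72 hr. At 24 hr it was already 509 to 995, while Hsd11b1 ran from 1.26 to 2.09 log2 CPM. No marker was at 0, and 1 of the 6 (Dcn) rose at 48 hr and 0 passed at 72 hr by edgeR. At some time point 3 of the 6 (Col1a1, Col1a2 and Col3a1) fell. The part of fibroblast RNA in the Hsd11b1 result was not tested. In the brain the change of Hsd11b1 at 48 hr was 1.13 ± 0.40 (adjusted p = 0.0569). Lung 6 hr replicate 2 had no count of Hsd11b1, where 3 counts would have stood for 1.09 CPM.

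Sult1a1 fell in brain ECs at 48 hr, from 8.25, 7.25, 7.18, 7.70 and 6.36 log2 CPM at 0 hr to between 5.09 and 6.74 with a median of 6.29, and the groups overlapped. The change was -1.35 ± 0.41 (adjusted p = 0.0292), with -1.92 within series 1 and -0.79 within series 2, and it was lost without any 1 of 0 hr replicates 1 and 4 and 48 hr replicates 3 and 6 (adjusted p up to 0.118). In the lung its values were -1.94 ± 0.69 at 6 hr (adjusted p = 0.0938) and -1.91 ± 0.56 at 48 hr (adjusted p = 0.128), and in the heart 0.49 ± 0.32 at 6 hr (adjusted p = 0.216). Tsc22d3 values at 6 hr were -0.05 ± 0.36 in the brain, -0.95 ± 0.91 in the lung and 0.43 ± 0.41 in the heart (adjusted p from 0.413 to 0.970). Zbtb16 was at 1.16 ± 0.47 in the brain (adjusted p = 0.162) and 0.98 ± 0.62 in the heart (adjusted p = 0.203) at 6 hr. Its heart libraries ran from 5.94 to 6.27 log2 CPM at 6 hr and from 6.09 to 6.75 at 24 hr. All of them lay above the 0 hr range of 4.81 to 5.65. At 24 hr the heart change was 0.70 (adjusted p = 0.475). With only the groups compared in the edgeR fit, Zbtb16 passed in the heart at 6 and 24 hr (adjusted p = 0.0231 and 0.00306). In the brain it then passed at 6 and 24 hr too (adjusted p = 0.0453 and 0.0292). A missed threshold does not show that these genes did not change. With only the groups compared, other calls were lost. They were Zfp36 in the brain at 6 hr, and Pdk4, Sgk1, Nr3c1 and Sult1a1 in the brain at 48 hr. Pdk4 in the lung at 6 hr and Hsd11b1 in the heart at 72 hr were lost as well.

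**Figure D3:**
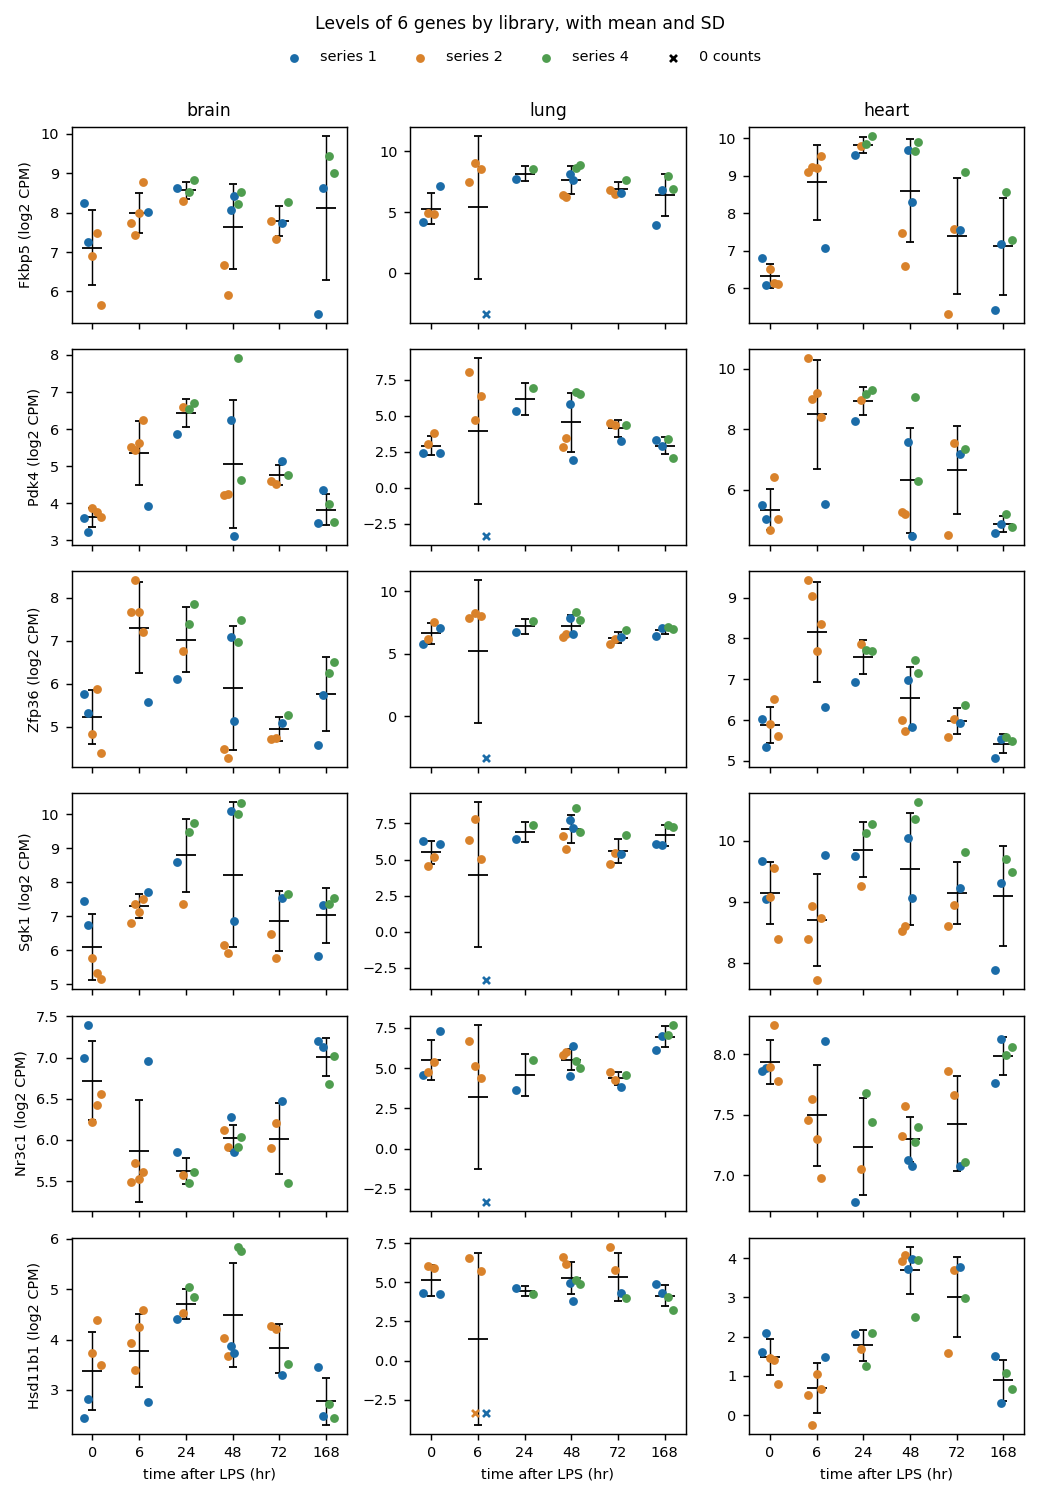
Log2 CPM of Fkbp5, Pdk4, Zfp36, Sgk1, Nr3c1 and Hsd11b1 (rows) in brain, lung and heart (columns) at 0, 6, 24, 48, 72 and 168 hr after LPS. Each point is 1 library coloured by library series, crosses are libraries with no count, and bars are the mean and SD. Fkbp5, Pdk4 and Zfp36 are raised at 6 and 24 hr in the heart apart from the series 1 library at 6 hr, Nr3c1 dips in the brain, and heart Hsd11b1 is highest at 48 hr, between 2.50 and 4.08.

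Mice of the same time point differed from each other in several of these genes, and often in all 3 tissues at once. At 168 hr, replicate 1 had Zbtb16 at 1.85, 1.36 and 1.79 log2 CPM in brain, lung and heart, where the other 9 libraries ran from 5.17 to 7.07. Fkbp5 in that replicate was at 5.44, 3.97 and 5.41, below 6.78 to 9.43 in the others, and Tsc22d3 at 7.77, 7.36 and 7.17, below 8.78 to 10.86. Which libraries come from 1 mouse was read from the names of the count files, which for brain and heart gave the same pairs as the replicate numbers of the labels in 27 of 27 cases. The deviation of each library from its time point and library series was then correlated between tissues of the same mouse, over libraries with at least 1000000 counts.

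Tsc22d3 moved together most closely. Its Pearson r was 0.92 between brain and lung (n = 22 mice, Spearman rho 0.92), 0.85 between brain and heart (n = 28, rho 0.90) and 0.90 between lung and heart (n = 22, rho 0.88). The permutation p was 1e-05 each time, the smallest that 100000 permutations can give, for r and for rho, and 5e-05 for r and 0.0001 for rho after Benjamini-Hochberg adjustment over the 30 correlations computed. Mice were permuted across time points and series after these means were removed, so that deviations within a group depend on each other. The permutation p given here and below may therefore be too small, which matters most near the threshold. Without the 2 mice farthest from the median r was 0.90, 0.81 and 0.87, and within each library series of 6 or more mice it was between 0.75 and 0.96. Of all genes tested, 1 of 7387 had an r as high between brain and lung (Tsc22d3 itself) and 1 of 7274 between lung and heart, while 3.18% of 8660 genes did between brain and heart, where the median r of all genes was 0.44. The other median values were 0.12 and 0.16. The tissue pair of brain and heart thus had a high background. There, 6.81% of all genes had an r at or above that of Zfp36, 12.2% that of Pdk4, 12.7% that of Dusp1, 24.8% that of Zbtb16, 35.3% that of Nr3c1, 38.6% that of Sgk1, 41.6% that of Fkbp5 and 55.8% that of Sult1a1, so that the last 4 were near the median of all genes. Between brain and lung the shares were 0.203% for Zbtb16, 0.447% for Fkbp5, 0.650% for Dusp1, 3.44% for Sult1a1, 7.31% for Pdk4 and 8.98% for Zfp36. Between lung and heart they were 1.24% for Dusp1, 6.86% for Zfp36, 9.94% for Zbtb16, 15.1% for Nr3c1, 15.6% for Sult1a1, 17.4% for Pdk4 and 20.2% for Fkbp5.

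Dusp1 had an r of 0.79, 0.74 and 0.77 in the same order (rho 0.75, 0.74 and 0.79), with adjusted permutation p of at most 0.00012. It was between 0.64 and 0.79 without the 2 farthest mice and between 0.63 and 0.85 within series. Fkbp5 had an r of 0.80 between brain and lung (rho 0.80, adjusted permutation p = 0.0001, 0.70 without the 2 farthest mice). Its values of 0.50 and 0.44 with the heart (rho 0.53 and 0.52, adjusted permutation p = 0.0126 and 0.0492) were lower, and the last fell to 0.32 without the 2 farthest mice and to 0.03 within series 2. Zbtb16 had 0.83, 0.63 and 0.57 (rho 0.64, 0.46 and 0.41, adjusted permutation p = 5e-05, 0.00235 and 0.0126), which fell to 0.60, 0.37 and 0.23 without the 2 farthest mice. The last 2 relations of Zbtb16 rest on those mice, and the adjusted permutation p for rho between lung and heart was 0.0706. For the other values of Fkbp5, Dusp1 and Zbtb16 it was at most 0.0232. Zfp36 had 0.54, 0.80 and 0.61 (rho 0.56, 0.74 and 0.61, adjusted permutation p = 0.0154, 5e-05 and 0.00515), and 0.42, 0.69 and 0.63 without the 2 farthest mice. Pdk4 had 0.57, 0.74 and 0.47 (rho 0.51, 0.72 and 0.45, adjusted permutation p = 0.0104, 8.57e-05 and 0.0364), and 0.43, 0.64 and 0.29 without them. The adjusted permutation p for rho of these 2 genes was at most 0.0475. Within series 2 the r of Pdk4 was 0.26, 0.34 and 0.17, and that of Zbtb16 was 0.62, 0.28 and 0.10.

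Hsd11b1 had no correlation that passed in any pair of tissues (r 0.04, -0.13 and -0.38, rho 0.37, -0.09 and -0.44, adjusted permutation p = 0.857, 0.552 and 0.104). Sgk1 had 0.52 between brain and heart (rho 0.55, adjusted permutation p = 0.00836, 0.42 without the 2 farthest mice) and -0.08 and -0.27 with the lung (rho -0.17 and -0.17, adjusted permutation p = 0.784 and 0.250). Nr3c1 had -0.05, 0.54 and 0.50 (rho 0.12, 0.47 and 0.47, adjusted permutation p = 0.848, 0.00615 and 0.0266, and 0.17, 0.38 and 0.63 without the 2 farthest mice). Sult1a1 had 0.65, 0.39 and 0.49 (rho 0.62, 0.40 and 0.50, adjusted permutation p = 0.00305, 0.0501 and 0.0283, and 0.50, 0.24 and 0.35 without them). Within series 2 the r of Sult1a1 was 0.25, 0.02 and -0.06. The adjusted permutation p for rho of these genes was at most 0.0475 wherever the r passed, and it was 0.0475 for Sult1a1 between brain and heart. Tissues of 1 mouse share the hour and day of sacrifice, which the labels do not give, and their part in these relations was not tested.

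**Figure D4:**
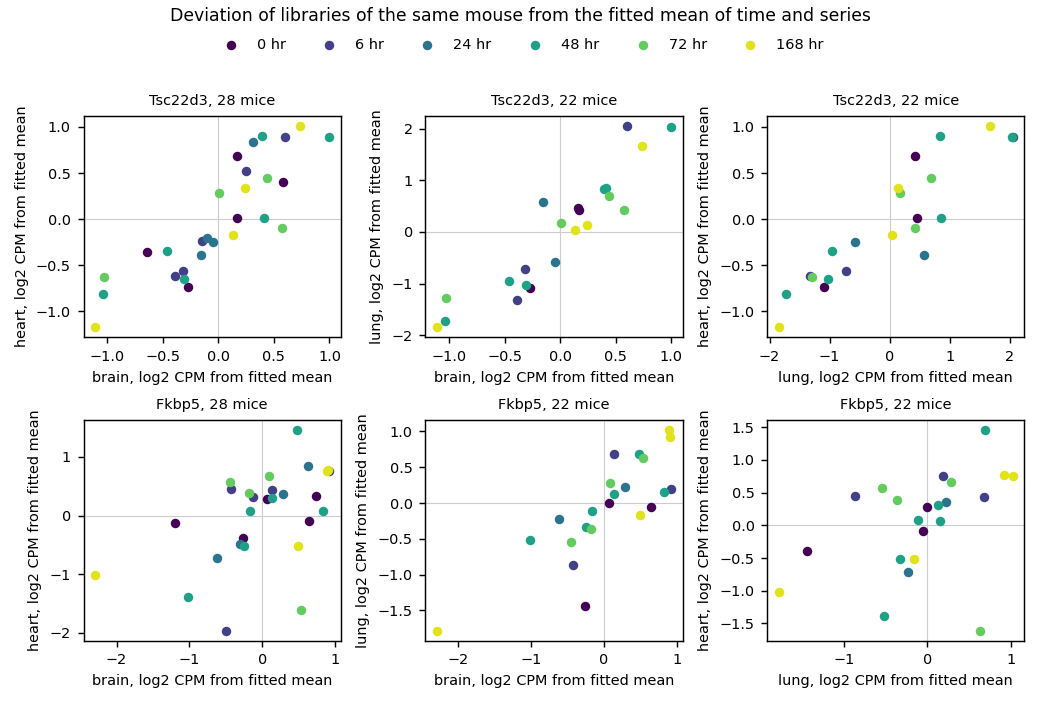
Deviation of log2 CPM from the fitted mean of time point and library series in 1 tissue against that in another tissue of the same mouse, for Tsc22d3 (top) and Fkbp5 (bottom). Each point is 1 mouse coloured by time point, 28 for brain and heart and 22 for each pair with the lung. The points of Tsc22d3 lie along a rising diagonal in all 3 pairs (r 0.85, 0.92 and 0.90), and those of Fkbp5 scatter more in the pairs with the heart (r 0.50 and 0.44).

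Within groups of libraries of 1 tissue and time point, Zbtb16 also followed Fkbp5, with an r of 0.82 over 28 brain, 0.85 over 23 lung and 0.74 over 28 heart libraries. Nr3c1 had -0.21, 0.24 and -0.62, and the medians of all genes were 0.06, -0.00 and 0.07. Over all libraries of a tissue with series removed, the gene most like Fkbp5 among 14501 was Map3k6, a stress-activated kinase, with an r of 0.77 in the brain, 0.90 in the lung and 0.79 in the heart. It was followed by Clint1, Eva1c, Cdc42ep4 and Dapk3, with lowest values of 0.75, 0.74, 0.74 and 0.74. Without the shallow lung library Map3k6 stayed first and Cdc42ep4 was at rank 12, and Clint1, Eva1c and Dapk3 ranked 1190, 138 and 1656. Of the 10 genes Zfp36 was the closest at rank 114 (24 without that library). Zbtb16 ranked 2538 and 26, and Nr3c1 ranked 13097. These correlations describe libraries that share time points and depth, and no p is attached.

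The other genes of the pathway were taken from lists chosen with earlier results of these data known. Of 28 further glucocorticoid targets, 12 rose and 2 fell at some time point in the brain, 4 rose and 0 fell in the lung by edgeR, and 15 rose and 2 fell in the heart. Of all genes tested, 12.1% rose and 9.78% fell at some time point in the brain, 2.7% and 2.36% in the lung and 25% and 23.7% in the heart, and the counts of the lists below are to be read against these shares and not as a contrast of tissues. At 6 hr 15 were higher and 2 lower in the heart, where 22.4% and 20.3% of all genes were, and the median log2 fold change of the list was 1.08, against -0.05 for all genes. In the brain 11 were higher and 1 lower at 6 hr, where 4.21% and 2.23% of all genes were, with medians of 0.69 and 0.00. In the lung 4 were higher at 6 hr, where 2.56% of all genes were and 2.27% were lower, with medians of 0.81 and -0.42. Among them were the metallothioneins Mt2 and Mt1, which bind zinc and other metals, and Cebpd, an acute-phase transcription factor. In the heart at 6 hr Mt2 rose by 10.38 ± 1.51 (adjusted p = 3.19e-05), Mt1 by 6.98 ± 1.12 and Cebpd by 4.98 ± 0.71, while the lowest Mt2 library, at 2.43 log2 CPM, was within the 0 hr range of 0.79 to 2.46. In the brain Mt2 and Mt1 rose by 4.86 ± 0.96 and 3.82 ± 0.76 at 24 hr, and Cebpd by 4.03 ± 0.69 at 6 hr. In the lung Mt2 rose by 7.89 ± 1.70 at 24 hr (n = 2) and Mt1 by 5.15 ± 1.27 at 6 hr. Il1r2, a decoy receptor of interleukin-1, stood at 6.86 and 7.90 log2 CPM in the lung at 24 hr. At 0 hr it was at -3.35, the floor set by the prior count, to 0.91 (adjusted p = 0.000312). Neutrophil markers rose in the lung at 24 hr too, as given below, and their part in Il1r2 was not tested. Metallothioneins and Cebpd are also induced by cytokines.

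Among 10 genes of steroid receptors and handling, 2 rose and 4 fell at some time point in the brain, 1 rose in the lung, and 2 rose and 6 fell in the heart. This list holds Nr3c1 and Hsd11b1 themselves. Nr3c1 is counted among those that fell in brain and heart, and Hsd11b1 among those that rose in the heart. At 6 hr alone 1 rose and 4 fell in the heart and 2 rose and 2 fell in the brain. Akr1c14, a 3-alpha-hydroxysteroid dehydrogenase, fell from between 4.95 and 6.82 log2 CPM at 0 hr to between 0.91 and 1.32 at 24 hr in the brain (-4.77 ± 0.82, adjusted p = 0.000913), and by 3.29 ± 0.90 in the heart (adjusted p = 0.0198). H6pd, which supplies NADPH to the Hsd11b1 enzyme in the endoplasmic reticulum, rose by 2.70 ± 0.50 in the brain (adjusted p = 0.00163) and by 1.56 ± 0.30 in the heart at 24 hr (adjusted p = 0.00266). Abcb1a, an efflux pump of the blood-brain barrier that also exports steroids, fell by 1.73 ± 0.40 in the brain at 24 hr (adjusted p = 0.00698) and by 1.31 ± 0.36 in the heart at 6 hr (adjusted p = 0.00673). Its close relative Abcb1b went the other way in the brain, where it rose at some time point. Abcb1b was also the gene of this list that rose in the lung.

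Of 18 chaperones of the receptor, 9 rose and 1 fell in the heart at 6 hr, where 22.4% and 20.3% of all genes did. In the brain 0 rose and 2 fell at some time point, and 0 passed in the lung by edgeR or by DESeq2, with 3 at an unadjusted p under 0.05. The gene that fell in the heart and brain was Fkbp4, the co-chaperone that competes with Fkbp5 for the receptor complex, by 1.42 ± 0.28 at 24 hr in the heart (adjusted p = 0.00311) and by 1.02 ± 0.25 at 48 hr in the brain (adjusted p = 0.00976). Hsp90aa1 and Ptges3 (the co-chaperone p23) rose in the heart at 6 hr by 2.08 ± 0.43 (adjusted p = 0.000876) and 1.66 ± 0.30 (adjusted p = 0.000301). In the brain at 48 hr Dnaja1 fell by 0.52 ± 0.16 (adjusted p = 0.0340). Of 14 coregulators 4 rose and 2 fell in the heart at 6 hr, shares near those of all genes, and 1 fell in the brain. In the lung 0 passed by edgeR and 1 by DESeq2, with 2 at an unadjusted p under 0.05. Among them were Nrip1 at 1.10 ± 0.27, Ncoa1 at -0.88 ± 0.28 and Tsg101 at 0.62 ± 0.18 in the heart at 6 hr, and Hdac2 at -0.44 ± 0.14 in the brain at 48 hr. Of 22 family relatives of the 10 genes, 18 were tested in the brain and the heart and 19 in the lung. In the heart 9 rose and 3 fell, in the brain 3 rose and 2 fell, and in the lung 1 rose. Dusp5, a nuclear MAP kinase phosphatase, rose by 4.24 ± 0.66 in the heart at 6 hr (adjusted p = 6.27e-05). Zfp36l2 and Zfp36l1, relatives of Zfp36, fell in the heart by 1.64 ± 0.42 at 6 hr (adjusted p = 0.00409) and by 1.54 ± 0.51 at 24 hr (adjusted p = 0.0431). In the brain Fkbp1a rose by 1.08 ± 0.31 and Tsc22d1 fell by 0.76 ± 0.23 at 48 hr, and Tsc22d4 rose by 0.58 ± 0.17 at 24 hr.

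Markers of other cells moved as well. The summed level of 12 endothelial markers at 0 hr was 2059 to 4243 CPM in the brain, 12703 to 17344 in the lung and 11379 to 12899 in the heart, so that ECs were represented in all tissues. At 6 hr the sum was 1538 to 2740 in the brain, 2196 to 14336 in the lung and 5255 to 11693 in the heart. In the brain its median was 2765 CPM at 0 hr, 3995 at 24 hr (2674 to 4857), 4708 at 48 hr (3115 to 6005) and 4843 at 72 hr (3542 to 6422). In the heart the medians at these times were 11666, 10969, 12342 and 12047, and in the lung 15151, 21549, 15672 and 16657. The part of this in the results was not tested. Of 10 neutrophil markers, 6 rose at some time point in the brain, 8 in the lung and 9 of the 9 tested in the heart. Their sum went from 46.4 to 213 CPM at 0 hr to 1520 to 2747 at 24 hr in the lung, from 1.08 to 1.88 to 9.26 to 34.7 in the heart, and from 6.37 to 57.5 to 43.6 to 131 in the brain. In the heart at 0 hr 2 of these markers were at 0 in every library. Of 8 macrophage markers 7 rose in the brain, with sums of 38.3 to 141 CPM at 0 hr and 277 to 438 at 24 hr, 4 rose and 1 fell in the heart, and 1 rose in the lung. Parenchymal and stromal markers moved too. Alveolar epithelium markers summed to 7203 to 13581 CPM in the lung at 0 hr, cardiomyocyte markers to 3663 to 7502 in the heart, and neuron markers to 1395 to 5484 in the brain. In the brain the median sum went from 3817 CPM at 0 hr to 1193 at 24 hr (784 to 5604) for neuron markers, from 4314 to 925 (633 to 4991) for oligodendrocyte markers and from 1131 (510 to 1566) to 4175 (1384 to 4549) for fibroblast markers. In the lung at 6 hr that of alveolar epithelium ran from 693 to 29329, that of cardiomyocyte markers had a median of 1012 (134 to 2809) against 121 at 0 hr (76.5 to 160), and that of pericyte and smooth muscle markers was 144 to 220 against 321 to 561. Leukocytes and parenchymal cells can express the 10 genes and genes of the lists too, and the part of such RNA in the results was not tested.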

How the data were processed

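Ribosome-associated RNA of ECs in 3 organs of LPS-treated and control mice was sequenced by the authors (Illumina HiSeq, TruSeq libraries). Reads were aligned with STAR 2.4.2 to mm10 and counted per gene with HTSeq 0.6.1, per the submitters' processing notes. The authors deposited raw counts per gene and sequencing run, without normalisation. Their ComBat batch correction is not in these counts. The annotation release and strand setting of the counting are not given in the sources used here, so that reads in the short overlaps of Dusp1, Sult1a1 and Zfp36 with genes on the opposite strand (11, 61 and 125 bases) cannot be assigned.

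Runs of the same library were summed (217 runs, 98 libraries), and the 18 libraries with under 3% of reads on genes, all of library series 3, were left out. Library totals exclude reads assigned to no gene, which is the rest of the reads in the shares given. Symbols and positions came from GENCODE M21 (52403 of 52550 gene identifiers matched without version) and promoters from RefSeq (GRCm38.p6). Tests were edgeR 4.0.16 quasi-likelihood tests (filterByExpr, TMM, library series as covariate, all time points of a tissue in 1 fit, Benjamini-Hochberg adjustment over all genes tested, threshold 0.05). Tissue differences came from 1 fit of all 3 tissues. Log2 CPM used a prior count of 2, with 0.5 as an alternative. The labels do not say more of the replicates than their numbers, and p-values measure the spread between these libraries. Intervals of counting error are not given, and 3 counts are taken as the limit of detection in a library at 0.

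Further tools were R 4.3.3, limma 3.58.1 (voom), DESeq2 1.42.0, Python 3.11.15, numpy 2.4.6, scipy 1.17.1, pandas 2.3.3 and matplotlib 3.10.9. The test scripts were tested on simulated data. Alternatives were DESeq2 size factors, no low-count filter, DESeq2, limma-voom, no series covariate, a replicate block, all libraries, libraries with at least 1000000 counts, a minimum absolute log2 fold change of 1, only the groups compared, series within tissue, and each replicate left out. The mouse block, the fits without the 6 hr libraries of series 1, the correlations within mice and the likeness to Fkbp5 in deep libraries were added after seeing the data.

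The 10 genes and all lists were chosen with earlier results of these data known. All 10 are named. Of each pathway list, up to 3 genes per tissue are named, the largest absolute log2 fold changes among called genes averaging log2 CPM 4 or more, and for the likeness to Fkbp5 the first 5. Abcb1b is named besides, as a relative of Abcb1a. Same-numbered libraries of different time points did not deviate together (median r -0.03, -0.05 and -0.06 in brain, lung and heart), so that the numbers pair no time points. Within a time point, brain and heart libraries of 1 number did (median r 0.28 over 27 pairs), and they come from 1 mouse by their file names.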

Additional observations from a re-analysis of the deposited data

Results flagged for a closer look

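Of 170 groups of 4 to 6 libraries examined, 20 held a library far from the others of its group, where chance gives about 1 in 20 groups. Values are log2 CPM, with the range of the other libraries in parentheses.

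At 168 hr replicate 1 was the low library in 6 of them, with Tsc22d3 at 7.77 in the brain (9.61 to 9.98) and 7.36 in the lung (10.46 to 10.86), Zbtb16 at 1.85 in the brain (5.17 to 5.73) and 1.36 in the lung (6.54 to 7.04), Sgk1 at 5.83 in the brain (7.34 to 7.54) and Dusp1 at 6.10 in the heart (7.89 to 8.01). At 6 hr, 4 were lung replicate 4, with -3.35 for Fkbp5, Dusp1, Sult1a1 and Zfp36, the value of a library with no count. The libraries of series 1 labelled 6 hr gave 2 more, with Fkbp5 at 7.06 in the heart (9.11 to 9.53) and Nr3c1 at 6.96 in the brain (5.49 to 5.71).

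The remaining 8 were single libraries. Tsc22d3 was at 9.63 in lung 0 hr replicate 1 (10.95 to 11.21). At 72 hr, Zbtb16 was at 3.79 in brain replicate 3 (3.40 to 3.46), Pdk4 at 4.48 in heart replicate 1 (7.18 to 7.56) and 3.26 in lung replicate 3 (4.39 to 4.52), and Dusp1 at 6.75 in brain replicate 5 (5.72 to 5.86). Nr3c1 was at 8.25 in heart 0 hr replicate 4 (7.78 to 7.89). At 48 hr, Hsd11b1 was at 2.50 in heart replicate 6 (3.73 to 4.08) and Sult1a1 at 5.09 in brain replicate 3 (6.17 to 6.74).

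The response of Sgk1 differed between tissues by the test of the difference itself, by 2.31 on the log2 scale between brain and heart at 48 hr and by 1.78 between lung and heart at 6 hr (edgeR, adjusted p = 0.0389 and 0.0471). Both calls were lost with the mouse as block (adjusted p = 0.142 and 0.184), with library series within each tissue (adjusted p = 0.309 and 0.0752), by limma-voom and without the series covariate, and each was lost without any 1 of 13 libraries.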

How the results depend on the processing

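The 46 calls of single genes kept their direction under every setting run. Leaving out each replicate in turn kept the call in 352 of the refits and lost it in 106 (19 calls), and the other settings kept it in 453 and lost it in 53 (20 calls). The counts of calls at 0 hr between tissues stayed within 1.5 times of 7 under all settings. Library series 4 has no 0 hr library, the lung at 24 hr has 2 libraries, and the shallow lung library has no count for 8 genes.

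Called comparisons with 0 hr numbered 10 in the brain, 1 in the lung and 10 in the heart. Without a low-count filter they were 17 in the brain and 2 in the lung. In the lung they were 2 with DESeq2 size factors, 4 by DESeq2, 0 by limma-voom, 0 with all libraries, 2 with at least 1000000 counts, 2 without the 6 hr libraries of series 1 and 0 with only the groups compared. Between neighbouring times they were 1 in the brain, 0 in the lung and 1 in the heart. These were 5, 1 and 5 without a filter. In the brain they were 0 without the series covariate and 0 with all libraries, in the lung 2 by DESeq2 and 1 without the covariate, and in the heart 2 by DESeq2 and 4 without the 6 hr libraries of series 1. Differences in response were 0 between brain and lung, 1 between brain and heart and 1 between lung and heart. These were 3, 6 and 5 without a filter. Brain and lung gave 1 with DESeq2 size factors, 1 by DESeq2 and 3 with the mouse as block (Fkbp5 at 6 and 48 hr and Nr3c1 at 168 hr). Brain and heart gave 2 by DESeq2, 2 without the 6 hr libraries of series 1, and 0 by limma-voom, without the covariate, with all libraries, with series within each tissue and with the mouse as block. Lung and heart gave 0 by limma-voom, without the covariate and with all libraries, 3 without the 6 hr libraries of series 1 and 2 with the mouse as block (Tsc22d3 and Nr3c1, not Sgk1). The causes were not tested. For most of the other settings, here and above, the share of all genes is not given. Their counts can thus not be set against those of other genes.

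With a replicate block, comparisons with 0 hr gave 6 calls in the brain, 1 in the lung and 6 in the heart, steps in the heart gave 0, and the differences from the heart gave 0 with the brain and 0 with the lung. The numbers do not pair time points.

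With each replicate left out, comparisons with 0 hr gave 6 to 11 calls in the brain, 0 to 4 in the lung and 6 to 11 in the heart. Steps gave 0 to 3, 0 to 0 and 0 to 3. Differences in response gave 0 to 5 for brain and lung, 0 to 2 for brain and heart and 0 to 4 for lung and heart. Calls at 0 hr numbered 6 to 8, 7 to 7 and 6 to 8 in that order. DESeq2 size factors moved the median log2 fold change of all genes by over 0.1 only in comparisons with the lung, by 0.31 at 6 hr.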
